A study of Mus musculus with 12 samples.

Results

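The 10 genes described here encode the core of major histocompatibility complex (MHC) class I antigen presentation in the mouse, and they were taken from a table of 48526 genes by the symbols H2-K1, H2-D1, B2m, Tap1, Tap2, Tapbp, Psmb8, Psmb9, Psmb10 and Nlrc5. All 10 were found, and all 10 passed the filter on low counts. RNA was sequenced from bone marrow-derived macrophages (BMDMs), which are macrophages grown in culture from whole marrow with macrophage colony-stimulating factor, from 3 female C57Bl/6J mice. From day 7 each mouse's cells spent 16 hr in medium alone or in medium holding Wnt3a (100 ng/mL), IL-4 (100 pg/mL) or both agents, which gave 4 groups of 3 libraries. The study asked how Wnt3a alters the response of macrophages to IL-4. The age of these mice was not given beyond a range for all marrow donors in the methods.

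Class I molecules show peptides from inside the cell to CD8+ T cells. The proteasome cuts proteins into peptides, and in cells exposed to interferon 3 of its catalytic subunits are replaced by Psmb8, Psmb9 and Psmb10, which form the immunoproteasome. Tap1 and Tap2 form the transporter that carries peptides into the endoplasmic reticulum, Tapbp (tapasin) bridges that transporter to empty class I molecules, and a class I molecule pairs a heavy chain such as H2-K1 or H2-D1 with β2-microglobulin (B2m). Nlrc5 is a transactivator that acts on the promoters of class I genes. Macrophages express this machinery constitutively and raise it in response to interferon.

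Within a mouse, the deposited columns for Wnt3a and for Wnt3a+IL-4 share reads. In each mouse 0 of 48526 genes had a Wnt3a count outside 1 to 2 times the Wnt3a+IL-4 count, whereas between 6681 and 8625 genes lay outside when the columns came from different mice. The columns were therefore solved for a pair of parts. Subtracting the combined-treatment column from the Wnt3a column gives the difference, and subtracting that difference from the combined-treatment column gives the remainder. Both come from cultures labelled as given Wnt3a. Which of them also received IL-4 is not stated by the labels and was left undecided. The untreated and IL-4 libraries held 13342492 to 17113982 counts each, and the parts 14171994 to 17453377. All 8 macrophage markers examined, among them Csf1r and Lyz2, were at 1 CPM (read count scaled for library size) or more in every library. Their summed level ranged from 43979 to 58374 CPM in the untreated and IL-4 libraries and from 57461 to 68614 CPM in the parts. Most of the sum was Lyz2, with means of 45363 CPM untreated, 37888 after IL-4, 52985 in the difference and 46959 in the remainder. Csf1r was lower in the parts, with means of 5233, 5609, 4793 and 4681 CPM in the same order. Means were higher in both parts for Fcgr1 (130, 100, 273 and 197 CPM), Itgam (127, 126, 265 and 236) and Cd14 (567, 397, 973 and 654). The same held for Adgre1 (2444, 2296, 3030 and 2856 CPM). Mertk was below untreated cells in both parts (124, 107, 111 and 105 CPM), and Cd68 was below them in the difference only (1841, 2031, 1690 and 1928). The sum therefore does not describe each marker.

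The genes lie on 3 chromosomes (mm10, positions from GENCODE vM21). Psmb9 (chr17:34181987-34187764, minus strand), Tap1 (chr17:34187553-34197225, plus), Psmb8 (chr17:34197721-34201454, plus) and Tap2 (chr17:34203527-34216321, plus) are neighbours within the MHC. Tapbp (chr17:33915899-33929292, plus), H2-K1 (chr17:33996017-34000347, minus) and H2-D1 (chr17:35262730-35267499, plus) lie on the same chromosome. B2m (chr2:122147686-122153083, plus), Psmb10 (chr8:105935735-105938444, minus) and Nlrc5 (chr8:94434356-94527272, plus) lie elsewhere. Part of the exon sequence of several of them is also exon of a gene on the opposite strand, 24.9% for Tapbp, 18.5% for Tap2, 14.7% for Psmb8, 5.79% for Psmb9 and 3.87% for Tap1. Whether the counting used strand is not given in the sources used here, so reads of these overlaps cannot be told apart. Of the 50-base stretches of H2-K1, 9.63% also occur in other genes, and of those of H2-D1, 12.8%, mostly other class I heavy chains.

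Promoter windows from RefSeq (GRCm38.p6, 250 bases before to 50 after a start) matched 8 of the 10 genes by symbol. The promoters of H2-K1 and B2m are shown because their products pair in 1 molecule and rose together, and the corresponding element of H2-D1 is shown because this heavy chain did not pass the test. Capitals mark matches, on either strand, to AANNGAAA (the core of an interferon regulatory factor, or IRF, site), GGG and TT set 2 bases apart with CC 1 base further on (NF-κB), TGACG (part of a cAMP response element) and ATTGG (the Y box, bound by the NF-Y complex). Each is written 5′ to 3′ on the strand of its gene.
H2-K1 (chr17:34000349-34000468, minus strand): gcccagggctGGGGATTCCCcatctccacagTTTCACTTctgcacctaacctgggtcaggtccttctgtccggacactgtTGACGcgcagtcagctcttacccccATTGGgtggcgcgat
H2-D1 (chr17:35262923-35262951, plus strand): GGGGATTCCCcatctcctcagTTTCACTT
B2m (chr2:122147540-122147648, plus strand): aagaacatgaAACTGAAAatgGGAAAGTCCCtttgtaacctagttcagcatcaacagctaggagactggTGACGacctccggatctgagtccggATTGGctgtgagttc

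The NF-κB and IRF matches of H2-K1 and H2-D1 sit in the same 29-base arrangement, which differs by 1 base, A18T, counted from 1 at the first base of the NF-κB match with the base of H2-K1 first. When the 300-base windows of H2-K1 and H2-D1 were aligned, 211 of 239 aligned bases (88.3%) were identical. Bases left unaligned are not counted in this share. By the same method 131 of 171 aligned bases (76.6%) of H2-K1 and B2m were identical, and 71.6% of H2-D1 and B2m. The H2-K1 and B2m stretches lie upstream of their genes' annotated starts, while GENCODE also lists an H2-D1 transcript that starts further upstream, within which the H2-D1 element is exonic.

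Of the 8 windows, 3 held an IRF core (H2-K1, H2-D1 and B2m), against 23.9% of all 32851 windows. The same 3 held an NF-κB match, against 4.79% of all windows. TGACG was found in 5 windows (those 3, Tap1 and Psmb9), against 20.8% of all windows, and ATTGG in 6 (those 5 and Tapbp), against 37.4%. TTC and GAA set 4 bases apart, the site of STAT6, were found in Psmb10 (6.95% of all windows), and CTTTGAT, a TCF site, in none (3.73%). The Tap1 and Psmb9 windows overlap, since the genes are read away from each other, so their matches are shared. These are matches of letters and do not show binding.

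**Figure D1:**
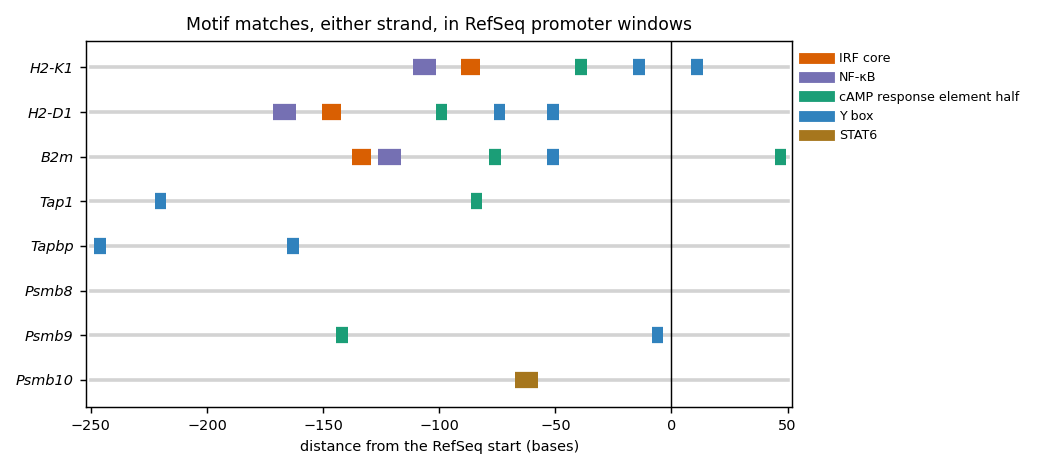
Matches to 5 motifs in the RefSeq promoter windows of 8 genes, by distance in bases from the RefSeq start. Each grey line is 1 window and each coloured block 1 match on either strand. The NF-κB and IRF core matches lie together in H2-K1, H2-D1 and B2m and are absent from the other 5 windows.

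In untreated cells, levels per kilobase of annotated mRNA spanned from B2m to Nlrc5. B2m stood at 3275 ± 212 CPM per kb (SD, n = 3), H2-D1 at 2185 ± 244, H2-K1 at 1204 ± 83.3 and Tapbp at 169 ± 6.20. The proteasome subunits followed, with Psmb10 at 73.1 ± 4.64 CPM per kb, Psmb8 at 63.6 ± 4.52 and Psmb9 at 36.1 ± 1.43. Tap1 stood at 27.8 ± 1.26 CPM per kb, Tap2 at 17.3 ± 0.956 and the transactivator Nlrc5 at 8.22 ± 1.28. Each neighbour in this order differed from the next by more than the SD of either. The least counted value of any of the 10 genes in any library was 697 counts, for Psmb9.

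Against untreated cells, both Wnt3a parts had higher levels of 9 of the 10 genes, by 1.39-fold to 2.10-fold in the difference and 1.46-fold to 2.47-fold in the remainder, and H2-D1 did not pass the test in either. The increase ran through peptide generation, transport and loading, one heavy chain, its light chain and the transactivator. None of the 10 genes passed after IL-4 alone, beside 3.40% of all genes, a share at which 0 of 10 says little. Over all 12421 genes tested, 11.8% passed as higher in the difference, 13.6% in the remainder and 8.61% in both (edgeR's quasi-likelihood test, Benjamini-Hochberg adjusted p under 0.05, all 12 libraries in a single fit). All 10 genes, H2-D1 included, were higher than in untreated cells in 3 of 3 mice in each part. The median log2 fold change of the 10 genes was 0.83 in the difference, beside -0.01 over all genes, and 1.01 in the remainder, beside -0.02. Both comparisons share the untreated libraries, and in RNA of whole cultures more cells of a type cannot be told apart from more RNA per cell.

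Of the heavy chains, H2-K1 stood at 1801, 2065 and 1979.7 CPM in the untreated libraries of mouse 1, 2 and 3, and at 2195, 1866 and 1987 CPM after IL-4. In the difference it stood at 3178, 3649 and 3582 CPM, and in the remainder at 4371, 3656 and 3814 CPM. All 6 parts lay above all 6 other libraries. The lowest value of the remainder, 3656 CPM, was close to the highest of the difference, 3649 CPM. The parts did not differ by edgeR's test (adjusted p = 0.332). The log2 fold change against untreated cells was 0.83 ± 0.10 (SE) in the difference (adjusted p = 3.16e-05) and 1.02 ± 0.10 in the remainder (adjusted p = 4.22e-06).

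H2-D1, the other classical heavy chain measured, had smaller fold changes. It stood at 4026, 5029 and 4721 CPM in untreated libraries and at 4993, 4443 and 4576 CPM after IL-4. It stood at 4433, 5385 and 5362 CPM in the difference, which overlaps the untreated range, and at 5975, 5129 and 5559.6 CPM in the remainder, which lies above it. The log2 fold change was 0.14 (95% interval -0.09 to 0.37, adjusted p = 0.394) in the difference and 0.27 (0.04 to 0.51, adjusted p = 0.083) in the remainder. H2-D1 was called higher in the remainder by DESeq2 (adjusted p = 0.0383), and in edgeR's test without the filter on low counts or without mouse 2, so this call depends on the setting. Its interval in the difference lay wholly below that of H2-K1, 0.62 to 1.05.

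The balance between the counts of both heavy chains is given as a description, without a test. H2-K1 took 30.9%, 29.1% and 29.5% of the summed H2-K1 and H2-D1 counts in untreated libraries and 30.5%, 29.6% and 30.3% after IL-4. It took 41.8%, 40.4% and 40.05% in the difference and 42.2%, 41.6% and 40.7% in the remainder. Every part thus lay above every other library, and group means were 29.9 ± 0.936%, 30.1 ± 0.495%, 40.7 ± 0.901% and 41.5 ± 0.783% (SD, n = 3). The share is within a library, so it does not depend on scaling between libraries, but reads that match both genes could be counted for neither.

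B2m, the light chain of every class I molecule, stood at 2929.7, 2607 and 2914 CPM in untreated libraries and at 3304, 2724 and 2982 CPM after IL-4. It stood at 5681, 5035 and 5087 CPM in the difference and at 4757, 5478 and 4550.4 CPM in the remainder. The parts did not overlap the other libraries. The log2 fold change against untreated cells was 0.90 ± 0.10 in the difference (adjusted p = 1.94e-05) and 0.81 ± 0.10 in the remainder (adjusted p = 4.47e-05). B2m and Nlrc5 were the genes whose mean was lower in the remainder than in the difference, and neither difference passed.

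**Figure D2:**
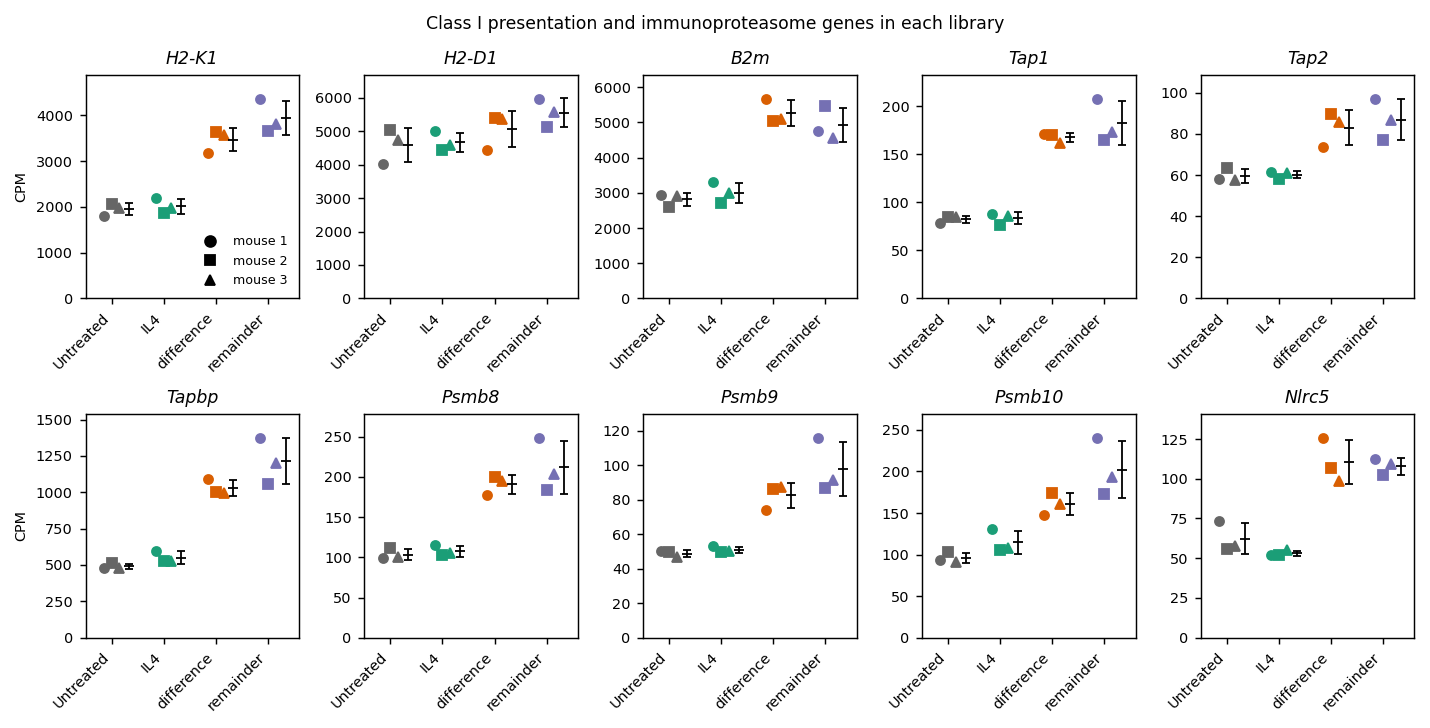
Levels of the 10 genes in CPM in each library, with 1 panel a gene, groups along the horizontal axis, a symbol for each mouse and the mean ± SD of 3 libraries beside the points. In 9 panels the 6 parts lie above the 6 untreated and IL-4 libraries, and in the H2-D1 panel they overlap.

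The peptide transporter rose unevenly. Tap1 stood at 77.9, 84.2 and 84.5 CPM in untreated libraries and at 87.8, 76.2 and 85.9 CPM after IL-4. It stood at 171, 169.7 and 162 CPM in the difference and at 208, 165 and 173 CPM in the remainder. Its log2 fold changes were 1.03 ± 0.09 (adjusted p = 1.81e-06) and 1.15 ± 0.09 (adjusted p = 5.08e-07).

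Tap2, its partner, stood at 57.9, 63.4 and 57.6 CPM in untreated libraries and at 61.4, 58.2 and 60.8 CPM after IL-4. In the difference it stood at 73.7, 89.7 and 85.9 CPM, and in the remainder at 97.2, 77.1 and 86.5 CPM. The log2 fold changes were 0.48 ± 0.10 (adjusted p = 0.00233) and 0.54 ± 0.10 (adjusted p = 0.000751), the smallest among the 9 genes that passed in each part. Without mouse 3 Tap2 no longer passed against untreated cells, at 0.44 in the difference and 0.53 in the remainder. The 95% interval of Tap2 in the difference, 0.27 to 0.68, lay below that of Tap1, 0.83 to 1.22, and the ratio of both genes was not tested.

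Tapbp had the largest fold change of the 10 genes in both parts. It stood at 479, 511 and 482 CPM in untreated libraries and at 599, 526 and 527 CPM after IL-4. The difference held 1092, 1004 and 992 CPM and the remainder 1374, 1058 and 1203 CPM. The log2 fold change was 1.07 ± 0.10 in the difference (adjusted p = 2.37e-06) and 1.31 ± 0.10 in the remainder (adjusted p = 2.86e-07), that is 2.10-fold and 2.47-fold.

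Psmb8 is the immunoproteasome subunit that takes the place of Psmb5. It stood at 98.6, 112 and 99.98 CPM in untreated libraries and at 115, 103 and 105 CPM after IL-4. The difference held 178, 199.8 and 195 CPM and the remainder 249, 183 and 203 CPM. Its log2 fold changes were 0.88 ± 0.10 (adjusted p = 2.75e-05) and 1.03 ± 0.10 (adjusted p = 5.45e-06).

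Psmb9 takes the place of Psmb6. Its levels were 50.1, 49.7 and 46.5 CPM in untreated libraries and 53.0, 49.8 and 50.3 CPM after IL-4. The difference held 74.3, 85.9 and 87.3 CPM and the remainder 116, 86.9 and 91.3 CPM. Mouse 1 gave the lowest value of the difference and the highest of the remainder, as it did for H2-K1, H2-D1, Tap2, Psmb8 and Psmb10. The log2 fold changes were 0.76 ± 0.11 (adjusted p = 0.000115) and 1.01 ± 0.11 (adjusted p = 6.82e-06).

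Psmb10, which takes the place of Psmb7, stood at 94.1, 103 and 90.8 CPM in untreated libraries and at 131, 106 and 108 CPM after IL-4. In the difference it stood at 148, 174 and 161 CPM, and in the remainder at 240.5, 173 and 194 CPM. All 3 IL-4 libraries lay above all 3 untreated ones, and the parts lay above both. The log2 fold changes of the parts were 0.75 ± 0.12 (adjusted p = 0.000392) and 1.08 ± 0.12 (adjusted p = 1.26e-05).

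Nlrc5, the class I transactivator, stood at 73.4, 55.7 and 57.8 CPM in untreated libraries and at 52.1, 52.1 and 54.9 CPM after IL-4, all 3 below the untreated range. It stood at 126, 107 and 98.7 CPM in the difference and at 112, 102 and 109 CPM in the remainder. Its log2 fold changes were 0.82 ± 0.11 (adjusted p = 7.91e-05) and 0.79 ± 0.11 (adjusted p = 9.59e-05). Together with the other genes, 9 of 10 had all 6 parts above all 6 other libraries, a pattern found in 8.32% of the genes tested.

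**Figure D3:**
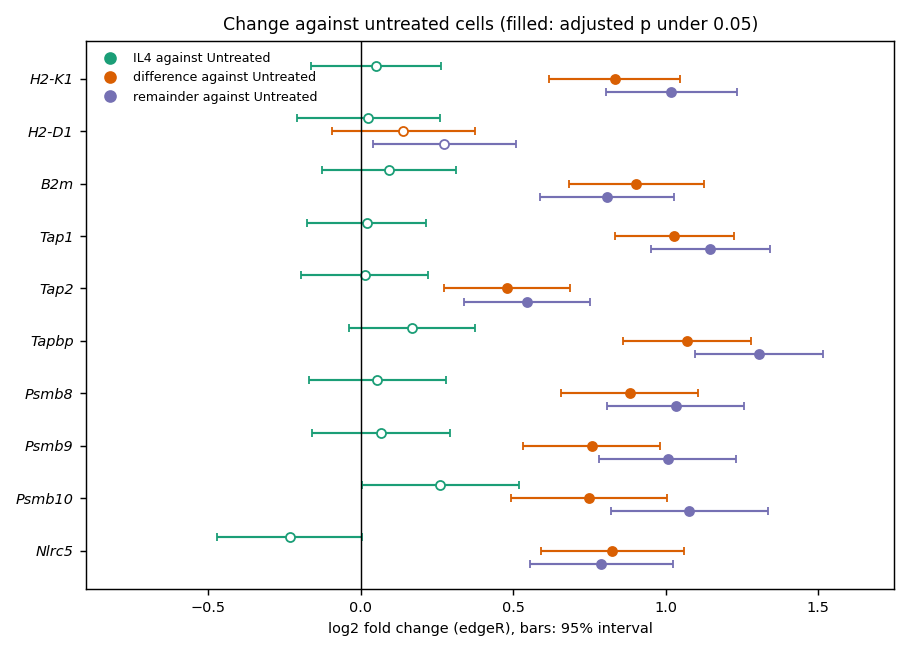
Log2 fold change of each gene against untreated cells, after IL-4 and in the difference and the remainder, with 95% intervals as bars and filled points for an adjusted p under 0.05. The points of both parts are filled for 9 genes, between 0.48 and 1.31, and open for H2-D1, and those of IL-4 are all open, between -0.23 and 0.26.

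After IL-4 alone, 0 of the 10 genes passed by edgeR, beside 3.40% of all genes, a share at which 0 of 10 says little. DESeq2 also called 0, and 1 gene (Psmb10) had an unadjusted p under 0.05. Log2 fold changes ran from -0.23 for Nlrc5 to 0.26 for Psmb10. Psmb10 (95% interval 0.01 to 0.52, adjusted p = 0.333) and Tapbp (0.17, interval -0.04 to 0.37, adjusted p = 0.478) were higher in 3 of 3 mice, and Nlrc5 (interval -0.47 to 0.00, adjusted p = 0.356) was lower in 3 of 3. In the other 7 genes the IL-4 and untreated libraries overlapped, although B2m and Psmb9 were also higher in 3 of 3 mice. Over all genes, 10.8% had all 3 IL-4 libraries above and 9.02% all 3 below the untreated ones. The highest upper bound of any of these intervals, 0.52, lay under the fold changes of both parts for 8 of the 9 genes that passed, the exception being Tap2.

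The parts were also set against IL-4 alone. The same 9 genes passed in the difference, beside 10.0% of all genes as higher, and in the remainder, beside 10.6%, and H2-D1 had adjusted p = 0.537 and 0.129. Nlrc5 had the largest change against IL-4 in the difference, 1.06 ± 0.11 (adjusted p = 7.3e-06), and Tapbp in the remainder, 1.14 ± 0.10 (adjusted p = 1.36e-06). Psmb10 was the least changed after H2-D1 and Tap2 in the difference, at 0.49 ± 0.12 (adjusted p = 0.00859), and it no longer passed there without mouse 2 (0.38) or mouse 3 (0.47). Tap2 no longer passed against IL-4 without mouse 3 in either part, at 0.47 in the difference and 0.56 in the remainder.

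The parts did not differ from each other by the test in any of the 10 genes, by edgeR or DESeq2, beside 5.25% of all genes, and 3 genes (Tapbp, Psmb9 and Psmb10) had an unadjusted p under 0.05. The remainder minus the difference was 0.33 for Psmb10 (95% interval 0.08 to 0.58, adjusted p = 0.137), 0.25 for Psmb9 (0.03 to 0.47, adjusted p = 0.2) and 0.24 for Tapbp (0.03 to 0.44, adjusted p = 0.195). In Psmb10 this value was 0.70 in mouse 1, -0.01 in mouse 2 and 0.27 in mouse 3, so most of it came from mouse 1. Psmb10 passed without mouse 2 (0.51), and Psmb10 and Tapbp passed without the remainder of mouse 2 (0.44 and 0.33).

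Whether the IL-4 effect differed with Wnt3a was tested for both assignments of the parts. Taking the remainder as the culture that also received IL-4, 0 of the 10 genes passed, beside 0.105% of all genes, 0 had an unadjusted p under 0.05 and DESeq2 called 0. Values ran from -0.19 for B2m to 0.20 for Nlrc5. Taking the difference as that culture, Psmb10 passed at -0.59 ± 0.17 (adjusted p = 0.0476), beside 7.33% of all genes. With the mouse as a block the adjusted p was 0.071 (-0.58), without mouse 1 it was 0.315 (-0.28) and without mouse 3 it was 0.408 (-0.61), so this call depended on the setting. It was kept in 3 of 15 fits that left out a mouse or library. Tapbp had the next largest value, -0.40 (adjusted p = 0.101).

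The subunits of the immunoproteasome were next set against the constitutive subunits that they replace, as ratios within each library. Psmb5 had log2 fold changes against untreated cells of 0.30 (adjusted p = 0.159) in the difference and 0.45 (adjusted p = 0.0363) in the remainder, Psmb6 of 0.24 (adjusted p = 0.157) and 0.51 (adjusted p = 0.00476), and Psmb7 of 0.32 (adjusted p = 0.0361) and 0.27 (adjusted p = 0.0733). Each constitutive subunit thus passed in 1 part and not in the other. The log2 ratio of Psmb8 to Psmb5 counts was 2.44 ± 0.10 (SD, n = 6 libraries from 3 mice) in the parts and 1.78 ± 0.08 in the untreated and IL-4 libraries. The gap was 0.66 with no overlap (two-sided exact permutation test over 924 assignments, p = 0.0022, adjusted p = 0.0032 over 3 ratios). This p is the smallest the test can give. Its assignments ignored which mouse a library came from, and assignments within each mouse are given below.

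For Psmb9 against Psmb6 the log2 ratios were -0.97 ± 0.10 and -1.55 ± 0.15, a difference of 0.58 with no overlap (exact permutation p = 0.0022, adjusted p = 0.0032). For Psmb10 against Psmb7 they were 1.85 ± 0.24 and 1.31 ± 0.16, a difference of 0.54 (exact permutation p = 0.0065, adjusted p = 0.0065). Here the highest IL-4 library, that of mouse 1 at 1.60, lay above the lowest part, the difference of mouse 1 at 1.53. With assignments made only within each mouse, p was 0.0093, 0.0093 and 0.019, the first being the smallest possible. Without mouse 2 or mouse 3 the last ratio had exact permutation p = 0.086 and 0.057.

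Per length, Psmb8 made up 66.5 ± 0.305% of Psmb8 and Psmb5 in untreated cells, 64.4 ± 0.287% after IL-4, 74.9 ± 1.55% in the difference and 75.03 ± 1.28% in the remainder (SD, n = 3). The 3 IL-4 libraries, at 64.04%, 64.6% and 64.5%, all lay below the 3 untreated libraries, at 66.8%, 66.2% and 66.6%. Among single genes, 9.02% had all 3 IL-4 libraries below all 3 untreated ones. No such share was taken over pairs of genes, so this separation was not tested. In the other pairs the IL-4 and untreated libraries overlapped. Psmb9 made up 17.6 ± 1.65%, 16.1 ± 0.848%, 23.3 ± 1.82% and 23.05 ± 0.609% of Psmb9 and Psmb6. For Psmb10 and Psmb7 the shares were 67.5 ± 0.218%, 69.7 ± 3.24%, 73.6 ± 2.22% and 78.4 ± 1.24%. These are shares of RNA, and protein was not measured.

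**Figure D4:**
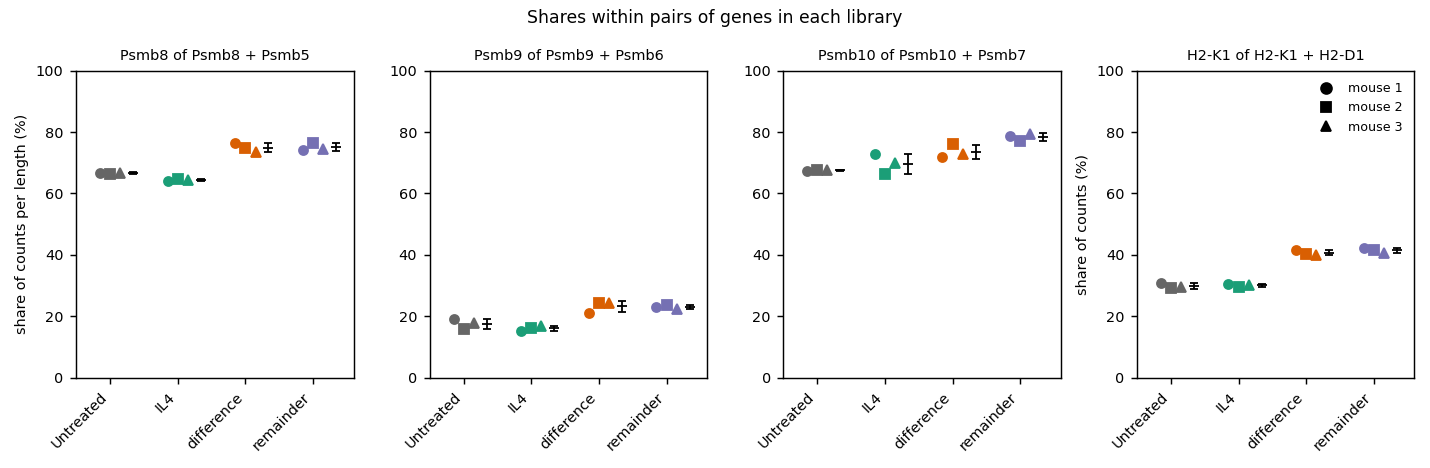
Share in percent of the first gene within each pair in each library, per mRNA length for the 3 proteasome pairs and as plain counts for H2-K1 and H2-D1. Symbols mark mice, with the mean ± SD of 3 libraries beside them. The parts lie above the other libraries for Psmb8, Psmb9 and H2-K1 and overlap them for Psmb10.

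Genes that act beside these 10 were followed in 4 lists, whose counts are to be read beside the shares of all 12421 genes. Of these, 11.8% rose and 11.4% fell in the difference, 13.6% rose and 11.7% fell in the remainder, and 2.31% rose after IL-4 alone (3.40% in either direction). Of 18 other class I heavy chains and class I-like genes, 14 had enough counts, and 10 rose and 1 fell in each part. The 1 that fell, and the 1 that rose after IL-4 alone (Hfe, 0.67, adjusted p = 0.000696), are counts near the shares of all genes. Hfe had means of 98.8 CPM in untreated libraries, 157 after IL-4, 98.6 in the difference and 180 in the remainder. H2-M2, a nonclassical heavy chain, stood at 0.914, 0.901 and 1.32 CPM in untreated libraries. It stood at 31.0, 48.4 and 34.0 CPM in the difference and at 47.9, 116 and 56.5 CPM in the remainder, and its log2 fold changes were 5.17 ± 0.39 (adjusted p = 3.91e-07) and 6.13 ± 0.39 (adjusted p = 5.8e-08). H2-Q7, a class Ib molecule, rose by 2.50 and 2.68 and its neighbour H2-Q6 by 2.37 and 2.63, and part of their sequence is shared with other heavy chains, so their counts are uncertain. Fcgrt, which pairs with B2m but binds IgG and albumin, fell by 0.72 and 0.66 on the log2 scale.

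In the list of peptide loading and trimming, 6 of 7 genes rose in each part, beside 11.8% and 13.6% of all genes, and 3 of 7 after IL-4 alone, beside 2.31%. The chaperone Calr, which holds class I molecules during loading, changed by 1.10 and 1.31 in the parts and by 0.50 after IL-4 (adjusted p = 0.00902). Its partner Pdia3 changed by 0.93 and 0.96, and by 0.51 after IL-4 (adjusted p = 0.00379). Erap1, which trims peptides in the endoplasmic reticulum, rose by 1.03 and 0.81, and its value after IL-4 was 0.40 (adjusted p = 0.0958). Calr, Pdia3 and Hspa5, the 3 that passed after IL-4, are also general chaperones or folding enzymes of the endoplasmic reticulum.

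Of 11 genes of peptide generation outside the 10, 4 rose in the difference and 5 in the remainder, beside 11.8% and 13.6% of all genes. After IL-4 0 passed, which at 3.40% of all genes says little about 11, and 0 fell in any of these comparisons. Psme2, a subunit of the PA28 activator of the proteasome, rose by 0.81 and 1.00, its partner Psme1 by 0.45 and 0.60, and the cytosolic aminopeptidase Npepps by 0.51 and 0.37. Psme3, which forms another activator, had log2 fold changes of 0.02 (adjusted p = 0.854) and 0.06 (adjusted p = 0.571).

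Among 20 regulators, 7 rose and 2 fell in the difference, and 8 rose and 1 fell in the remainder. The counts that fell are near or below the shares of all genes, 11.4% and 11.7%. Ciita, the class II counterpart of Nlrc5, rose by 2.05 and 2.78, by 1.03 after IL-4 alone, and by 0.73 from the difference to the remainder (adjusted p = 0.00583). Jak2, a kinase of the interferon-γ receptor, rose by 1.67 and 1.70, and Stat2, a transcription factor of type I interferon signalling, by 1.27 and 1.46. Irf1, an interferon regulatory factor, rose by 0.38 and 0.64. Its mean was 88.2 CPM in untreated libraries, 113 after IL-4 alone, 115 in the difference and 138 in the remainder. Ifngr1, a chain of the interferon-γ receptor, fell by 0.65 on the log2 scale in the difference (adjusted p = 0.000192) and by 0.87 in the remainder (adjusted p = 1.17e-05). Nfya, a subunit of NF-Y, fell by 0.44 in the difference (adjusted p = 0.000728), and its value in the remainder was -0.19 (adjusted p = 0.0754). Irf1, Ifngr1 and Nfya were named after their values were seen. The subunits of the RFX complex (Rfx5, Rfxank and Rfxap), which binds class I and class II promoters together with Nlrc5 or Ciita, had log2 fold changes between -0.24 and 0.06 and did not pass. The median log2 fold changes of the heavy chains, loading genes, peptide generation genes and regulators were 1.01, 0.72, 0.24 and -0.02 in the difference and 1.04, 0.81, 0.28 and -0.03 in the remainder, beside -0.01 and -0.02 over all genes.

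**Figure D5:**
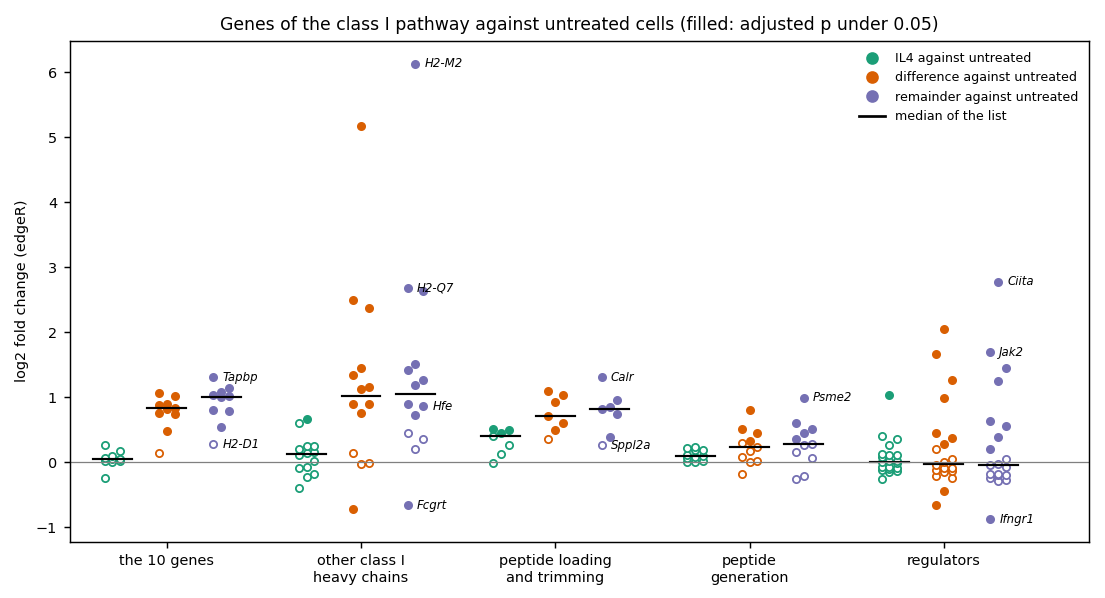
Log2 fold changes against untreated cells of the 10 genes and of 4 lists of related genes, with 1 point a gene, filled for an adjusted p under 0.05, and a line at the median of each list. The 3 comparisons share the untreated libraries. The points of the heavy chains reach 6.13 (H2-M2), and the medians of the regulators lie at -0.02 and -0.03 in the parts.

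By likeness of pattern, the 5 other genes among 8501 candidates whose log2 CPM followed the mean standardised profile of the 10 genes most closely over the 12 libraries were Mvd (Pearson r = 0.992), Chchd10 (0.989), Psme2 (0.987), Slc6a13 (0.987) and Pex16 (0.986). Among the 10 genes themselves r ran from 0.773 for H2-D1 to 0.998 for Psmb8, a value that includes each gene in the profile. These values are descriptions over libraries in 4 groups that share scaling and treatment.

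Markers of other cell types were read beside these results, and their part in them was not tested. Of 5 dendritic cell markers, 0 were at 1 CPM or more in every library, and their sum ranged from 0.878 to 1.24 CPM in untreated libraries, from 1.66 to 1.80 after IL-4, from 2.98 to 7.78 in the difference and from 8.41 to 21.0 in the remainder. Most of it in the parts was Ccr7, with up to 319 counts in a library of the remainder, while Flt3 had at most 5 counts, Clec9a at most 4 and Xcr1 at most 11 in any library. Zbtb46 had means of 0.372 CPM in untreated libraries, 0.728 after IL-4, 0.472 in the difference and 1.13 in the remainder, with at most 28 counts in a library. Of the T cell markers, 4 of 5 had at most 3 counts in every library (Cd3d, Cd3e, Cd3g and Cd8a), and the list's sum was 1.80 to 5.45 CPM over all libraries. Of the NK cell markers, 2 of 3 (Ncr1 and Prf1) were at 0 in every library. The sum of 6 neutrophil markers was 39.0 to 49.0 CPM in untreated libraries, 50.9 to 60.1 after IL-4, 28.6 to 45.4 in the difference and 25.7 to 29.7 in the remainder, and that of 5 stromal markers was 7.31 to 19.6, 8.75 to 27.9, 4.22 to 9.89 and 4.73 to 15.2 CPM.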

How the data were processed

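The authors deposited a raw read count for each gene and library, not normalized. The submitters' processing notes name Trimmomatic 0.36 for trimming, STAR 2.6.0 for alignment to mm10 and HTSeq 0.11.1 for counting. Identifiers were paired with symbols for 48058 of 48526 genes. The difference and the remainder were computed from the deposited counts of each mouse. The labels do not state which part is which culture, so interactions are given for both assignments. Over all 12421 genes, 13 passed with the remainder taken as Wnt3a+IL-4 and 910 with the difference taken as Wnt3a+IL-4. The assignment itself was not tested.

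The 12421 genes that reached 10 counts in 3 or more of the 12 libraries entered 1 fit without a mouse term, with TMM scaling and edgeR's quasi-likelihood test (edgeR 4.0.16, R 4.3.3), and a Benjamini-Hochberg adjusted p under 0.05 was called. The test was checked on simulated counts, drawn independently for each library with the same spread for every gene and no mouse effect. That check does not cover the solving of the shared columns or spread that differs between genes. CPM use TMM-scaled library sizes, and levels per kb use the length of 1 annotated principal transcript a gene. Ratios were compared with a two-sided exact permutation test. A marker at 3 counts or fewer was taken as at the floor, which covers counting error only.

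The 10 genes and the lists were chosen with earlier results of these data known. All 10 are named in every comparison. In each list, up to 3 genes called in both parts are named by the largest mean absolute log2 fold change, with Psmb5, Psmb6 and Psmb7 beside the immunoproteasome subunits. Outside this rule, Hfe, Fcgrt, Hspa5, Psme3, Irf1, Ifngr1, Nfya, Rfx5, Rfxank and Rfxap were named after their values were seen. The 5 most similar genes have a mean of at least 8 CPM. Alternatives were DESeq2 1.42.0, its size factors, total counts, other filters and thresholds, only the groups compared, the mouse as a block, the columns as deposited, and each mouse or library left out. The labels pair the samples, since each mouse gave 1 library to each group. Deviations of same-mouse libraries from their group means correlated between -0.42 and 0.45 over 18 pairs, of which 6 were over 0.1. Some results on single genes, a marker list and a motif are not reported here.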

Additional observations from a re-analysis of the deposited data

Results flagged for a closer look

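Psmb10 was the only one of the 10 genes whose IL-4 effect differed with Wnt3a by a test of that difference, and only when the difference is taken as Wnt3a+IL-4 and the remainder as Wnt3a. The interaction was -0.59 ± 0.17 on the log2 scale (edgeR, adjusted p = 0.0476). This is 1 of 10 genes, near the 7.33% of all 12421 genes called under this assignment. The log2 fold change of Psmb10 after IL-4 alone was 0.26 (adjusted p = 0.333) and the difference stood 0.33 below the remainder. With the other assignment the interaction was 0.07 (95% interval -0.29 to 0.43, adjusted p = 0.92), and 0.105% of all genes were called. Within mice, the change after IL-4 alone was 0.48, 0.04 and 0.25 in mouse 1, 2 and 3, and the remainder minus the difference was 0.70, -0.01 and 0.27. The call was lost without mouse 1 (-0.28, adjusted p = 0.315), without mouse 3 (-0.61, adjusted p = 0.408) and with the mouse as a block (-0.58, adjusted p = 0.071), and DESeq2 kept it (-0.58, adjusted p = 0.021).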

How the results depend on the processing

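Counts of the 10 genes that passed kept within 1.5 times of their values under most alternatives. Requiring a log2 change of 1 or more in size left 2 genes in the difference and 6 in the remainder against untreated cells, and 2 and 3 against IL-4. Against untreated cells, leaving out a mouse or library gave 8 to 9 genes in the difference and 8 to 10 in the remainder, and against IL-4 7 to 9 and 8 to 10. Between the parts 1 gene passed with all genes of at least 1 count, and 0 to 2 when a mouse or library was left out. With the mouse as replicate block, 9, 9, 0, 9 and 9 genes passed in the difference and remainder against untreated cells, between the parts, and against IL-4, and 0 after IL-4 alone, so it changed no call of these. It ended the interaction call of Psmb10 (0 genes), as did an adjusted p under 0.01, a change of 1 or more in size, DESeq2's size factors and total counts, and leaving out a mouse or library gave 0 to 2.

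The ratio of Psmb10 to Psmb7 lost its call without mouse 2 (0.46) and mouse 3 (0.54, range over mice left out 0.46 to 0.61). Those of Psmb8 and Psmb9 kept their calls, running from 0.63 to 0.71 and from 0.51 to 0.63 without 1 mouse. With assignments within mice as replicate block, the values were unchanged by construction and all 3 kept their calls.

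Total-count scaling moved the median of all genes to -0.10 in the difference and -0.13 in the remainder against untreated cells and the split of calls from 1462 higher and 1422 lower to 1131 and 2238, and from 1687 and 1450 to 1293 and 2342. Values that changed sign passed in no fit. After IL-4 these were, with total counts, H2-K1 (-0.0032), H2-D1 (-0.026), Tap1 (-0.033) and Tap2 (-0.041). Leaving out a mouse or library gave -0.063 to 0.13 for H2-K1, -0.11 to 0.12 for H2-D1, -0.051 to 0.086 for Tap1, -0.033 to 0.070 for Tap2 and -0.024 to 0.13 for Psmb8, and between the parts -0.0063 to 0.25 for H2-D1, -0.10 to 0.22 for Tap2, -0.028 to 0.29 for Psmb8 and -0.11 to 0.072 for Nlrc5. The cause was not tested. With 3 mice a group, the 95% intervals were about as wide as the change of Tap2, and smaller changes could be missed.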
